A study of Mus musculus with 12 samples.

Results

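Ovarian oocytes of 14-day-old mice lacking MTR4 were compared with wild-type (WT) oocytes by the RNA content of their cytoplasm. The members are the 6 cytoplasm libraries of a series of 12, 3 labelled Mtr4-null and 3 labelled WT, and the other 6 libraries, made from nuclei, did not enter the fit. Each library was total RNA of 10 cytoplasms, separated from their nuclei by micromanipulation, depleted of ribosomal RNA and read as 150 bp pairs. Neither group is labelled with any treatment. The sources used here do not give the strain, the means by which Mtr4 was removed, the part of the gene removed or the number of mice per library. Duplicates are mentioned in the series' design text, although each group has 3 labelled libraries, and nothing says that they came from separate mice, so p-values here cover library-to-library spread that may be technical only. Of 23235 gene entries, 11458 reached 1 FPKM in at least 3 of the 6 libraries and were tested, 5043 were at 0 in all 6, and 6734 lay between. FPKM counts fragments relative to transcript length and to all mapped fragments and is thus a share of a library, so a rise in an abundant RNA lowers the value of all others.

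MTR4, encoded by the gene listed as Skiv2l2, is an RNA helicase that unwinds RNA and threads it into the nuclear exosome, a barrel of subunits that trims or destroys RNA from its 3′ end. Adaptor complexes bring it different substrates: TRAMP marks RNA with short A tails, NEXT takes promoter upstream and other short-lived transcripts, and PAXT takes longer polyadenylated ones. A growing oocyte transcribes and stores the mRNAs that will later serve meiotic maturation and the early embryo, and its cytoplasm is where this store is kept.

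Skiv2l2 checked the labels. It stood at 21.1, 19.4 and 20.2 FPKM in WT against 1.04, 0.315 and 0.700 FPKM in Mtr4-null, a fall of 3.68 ± 0.19 on the log2(FPKM + 1) scale, on which every fold change here is given, and no library of one group reached the other. The 6 libraries were alike in summed FPKM (408142 to 472539) and in entries at 1 FPKM or more (10933 to 11531), but not in depth. Estimated from the smallest values shared between libraries, depth relative to WT replicate 1 was 1.55 and 1.41 in WT replicates 2 and 3, and 1.12, 0.519 and 0.671 in Mtr4-null replicates 1, 2 and 3. Rank correlation across genes was 0.955 to 0.989 within a group and 0.887 to 0.939 between groups, and a principal component with 66.0% of the variance put the genotypes on opposite sides. Among markers, the 14 oocyte genes summed to 13331 to 14209 FPKM in WT and 14224 to 19045 FPKM in Mtr4-null. The 18 granulosa cell markers summed to 101 to 117 and 82.8 to 125 FPKM, mostly Serpine2 (97.3, 74.1 and 113 FPKM in Mtr4-null), and 12 of the 18 did not pass the filter. Of the 6 tested, Col4a1 and Kitl were called lower (-1.59 ± 0.20 and -0.67 ± 0.18, limma adjusted p = 0.00091 and 0.026) and Igfbp5 higher (0.9987 ± 0.25, 0.017, and 1.75 with a pseudocount of 0.1). Serpine2 was at 0.01 ± 0.16, and Cyp19a1 was lower without a call (-0.66 ± 0.29, adjusted p = 0.12). In all, 3 of the 6 lay below 0 and 3 above, with a median of -0.325. The call of Col4a1 held with any 1 library left out, that of Kitl was lost without WT replicate 1, 2 or 3 or Mtr4-null replicate 3 (0.070, 0.064, 0.11 and 0.077) and with the replicate block (0.056), and that of Igfbp5 without WT replicate 1 or 2 or Mtr4-null replicate 3 (0.058, 0.055 and 0.057). The part of granulosa cell RNA in other results was not tested. Theca and stroma markers summed to at most 1.15 FPKM. Each library was made from 10 cytoplasms, and FPKM is a share of a library, so the amount of RNA per oocyte cannot be read from these values.

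In Mtr4-null cytoplasm 1777 genes rose, 15.5% of those tested, and 1434 fell, 12.5% (limma, Benjamini-Hochberg adjusted p below 0.05, two-sided). At least 2-fold higher were 789 genes, 6.89%, and at least 2-fold lower 444, 3.88%. Changes of 4-fold or more were found for 130 genes that rose and 68 that fell. The median over all genes tested was -0.01, while the median change of called genes was 0.93 for rises and -0.78 for falls. Of the 3211 called genes, 3191 had no overlap between the groups. Genes without a call, such as H1foo, could lack overlap too. The share over all genes tested is not given here, so the count adds no support to the calls. The counts of rises and falls were 996 and 660 without WT replicate 2, 1156 and 751 without WT replicate 3, 1541 and 973 without WT replicate 1, 1371 and 942 without Mtr4-null replicate 3, and 2112 and 1542 without Mtr4-null replicate 2. Falls outnumbered rises without Mtr4-null replicate 1 (1541 rises and 1770 falls) and with quantile normalization (1661 and 1671). Where 6 counts of a gene list follow the words "left out in turn", they are the counts without WT replicate 1, 2 and 3 and without Mtr4-null replicate 1, 2 and 3, in that order. List counts are of the genes that passed the filter, and a gene of low level could pass it through its higher group alone, so such counts describe the list only. They are to be read beside the shares of all genes tested, 15.5% that rose and 12.5% that fell. A fit that took its spread from all 12 libraries, nuclei included, called 192 and 110, all of them among the 3211, and 53 of the 173 called genes named here.

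**Figure D1:**
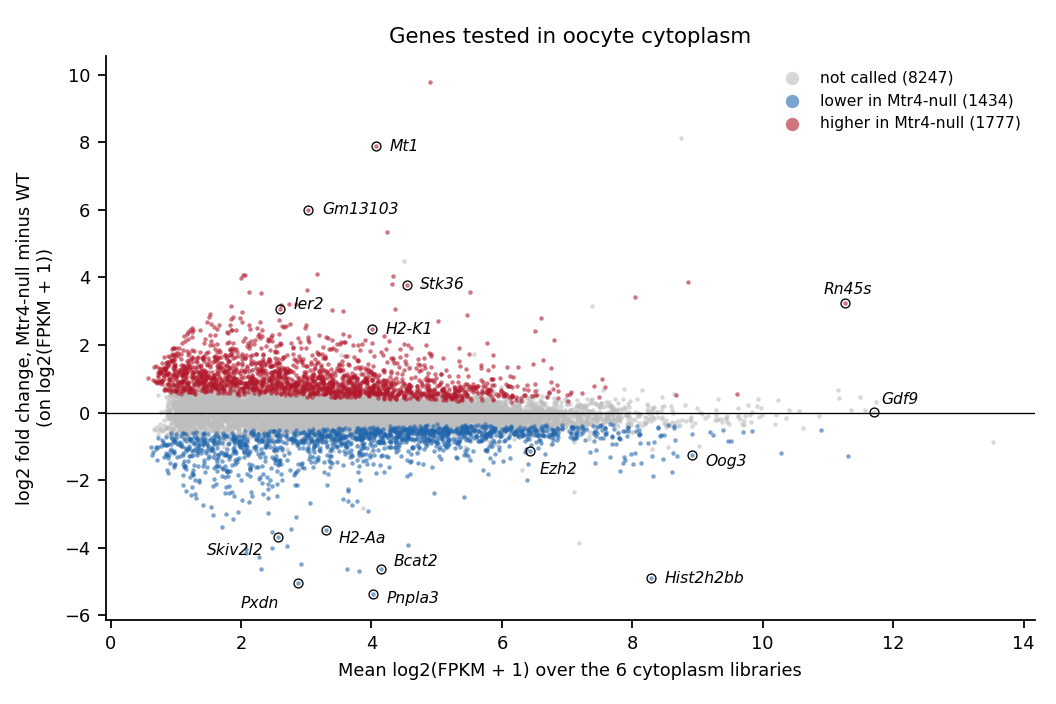
Log2 fold change (Mtr4-null minus WT, on log2(FPKM + 1)) against the mean log2(FPKM + 1) of the 6 libraries for the 11458 genes tested, each point 1 gene, red for the 1777 called higher, blue for the 1434 called lower and grey for the rest. The largest rises start from genes near 0 in WT, such as Mt1, while Hist2h2bb is an abundant transcript that fell.

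Rises and falls were found at different levels of expression. Of the 1171 genes that averaged under 2 FPKM over the 6 libraries, 24.3% rose and 10.8% fell. Of the 721 genes at 100 FPKM or more, 4.16% rose and 20.7% fell. The bins between changed in steps, with 20.6% rising at 5 to 10 FPKM, 10.2% rising and 12.7% falling at 20 to 50 FPKM, and 7.95% rising and 15.2% falling at 50 to 100 FPKM, and the bin medians ran from 0.16 to -0.18. The lowest bin holds genes that passed the filter only through the group in which they were high. Depth also differed between the groups, being lowest in Mtr4-null replicates 2 and 3, and its part in this was not tested.

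**Figure D2:**
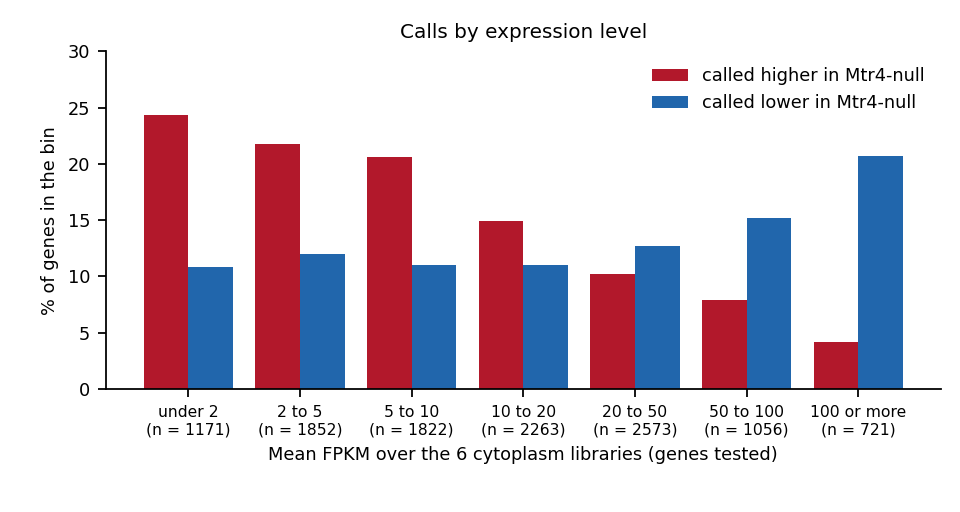
Percentage of genes called higher (red) or lower (blue) in Mtr4-null cytoplasm, in bins of mean FPKM over the 6 libraries, with the number of genes tested in each bin. The red bars go from 24.3% in the lowest bin to 4.16% in the highest, and the blue bars from 10.8% to 20.7%.

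By RefSeq class, 157 of 416 long noncoding RNA genes tested rose (37.7%) and 40 fell (9.62%), with a median of 0.37. Of 10829 protein-coding genes 1578 rose (14.6%) and 1366 fell (12.6%), with a median of -0.02. Entries named Gm or Rik, predicted or cDNA-derived genes without a given name, counted 290 that rose and 120 that fell among 1092. Left out in turn, the libraries gave 267, 198, 215, 262, 296 and 250 rises and 88, 63, 70, 140, 130 and 85 falls. Of all genes under 2 FPKM 24.3% rose and 10.8% fell. The part of expression level in the counts of long noncoding RNA and of Gm and Rik entries was not tested. Genes that rose also spanned less of the genome, 13.2 kb at the median against 33.0 kb for genes that fell and 23.4 kb for all 11371 matched.

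Among these entries, Gm13103 had 0.0446, 0.0286 and 0 FPKM in WT against 75.5, 65.0 and 54.7 in Mtr4-null. 6430706D22Rik was already present in WT, at 48.7, 51.3 and 56.7 FPKM, and reached 259, 182 and 270.2 FPKM in Mtr4-null (2.14 ± 0.16, limma adjusted p = 7.7e-05). A930018P22Rik went from 4.32 ± 0.757 to 76.1 ± 27.7 FPKM. No overlap between the genotypes was a condition for naming all 3. The largest falls of the class were those of A430084P05Rik, from 25.4 ± 7.29 to 0.697 ± 0.453 FPKM, and D430041D05Rik, at 3.71, 6.42 and 8.35 FPKM in WT against 0.0783, 0.0141 and 0 in Mtr4-null. Airn, an imprinted long noncoding RNA, rose from 1.58 ± 0.441 to 5.01 ± 1.61 FPKM (1.20 ± 0.24). It runs antisense to Igf2r, named after its values were seen, which was higher too (0.70 ± 0.17, adjusted p = 0.015, and 0.050 and 0.069 without WT replicates 1 and 2), and reads of the pair cannot be told apart without strand.

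Of the 9 snoRNA host genes tested, whose introns carry the small RNAs that guide modification of ribosomal RNA, 3 rose and 1 fell. Snhg6 was at 5.37, 5.05 and 3.55 FPKM in WT against 25.5, 29.6 and 16.0 in Mtr4-null (limma adjusted p = 0.00058). Snhg3 rose by 1.63 ± 0.43 and Snhg7 by 1.55 ± 0.36 (3.08 and 2.77 with pseudocount 0.1), with adjusted p of 0.076 for Snhg3 without WT replicate 1, 0.064 without WT replicate 3 and 0.061 without Mtr4-null replicate 3, and of 0.056 for Snhg7 without WT replicate 2. The fall was that of Taf1d (-0.83 ± 0.26), which was lost without WT replicate 1, 2 or 3 or Mtr4-null replicate 2 or 3 (adjusted p 0.13, 0.11, 0.072, 0.079 and 0.13). Snora47, a small nucleolar RNA lying in a host intron, stood at 115, 176 and 83.4 FPKM in WT against 1568, 2036 and 1722 in Mtr4-null. Its reads cannot be told apart from those of the host's unspliced RNA.

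The 12 largest rises among genes with a given name, small RNA entries set aside, were Mt1, Lypd3, Prr15l, Defb8, Rnaset2b, Stk36, Cyp2c53-ps, Lars2, Rn45s, Slc30a2, Ier2 and Arid5b. Stk36, a kinase gene of motile cilia, was at 5.79, 5.04 and 5.08 FPKM in WT against 93.2, 79.5 and 84.7 in Mtr4-null, with the smallest standard error of the 12 (3.78 ± 0.13, limma adjusted p = 1.1e-06). Lypd3, for a membrane-anchored surface protein, was at 1.58, 0.917 and 1.08 and 43.5, 36.8 and 29.9 FPKM, and Cyp2c53-ps, a cytochrome P450 pseudogene, at 0.763, 0.301 and 0.332 and 18.4, 15.8 and 14.0 FPKM. The 12 were ranked among genes whose groups do not overlap, and in these 3 the lowest Mtr4-null library lay far above the highest WT library. Prr15l had 0, 0.0403 and 0 FPKM in WT against 14.1, 20.3 and 14.6 in Mtr4-null. Arid5b, a DNA-binding chromatin factor, behaved otherwise, since its WT libraries alone spread over 0.237, 8.23 and 30.7 FPKM while Mtr4-null stood at 76.2, 40.1 and 65.1 FPKM. Its rise of 3.06 ± 0.95 (adjusted p = 0.042) was lost without WT replicate 2 (0.088) or Mtr4-null replicate 1, 2 or 3 (0.10, 0.051 and 0.10), and was 1.80 without WT replicate 1.

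In all, 12 entries were listed at 0 in all 3 WT libraries and at 1 FPKM or more in every Mtr4-null library, and no fold is given for them. The most abundant named ones were Mir32 (233, 2516 and 1172 FPKM in Mtr4-null), Defb8, a beta-defensin gene (14.8, 19.2 and 13.6 FPKM), and Rnaset2b, of the RNase T2 family (11.7, 25.1 and 11.3 FPKM). The reverse was true of 5 entries, among them Dcpp2 (16.8, 19.4 and 14.2 FPKM in WT) and Mir365-2 (24.3, 15.6 and 34.4 FPKM). Rnaset2b and Dcpp2 have close copies, among which the authors' counting could have divided reads.

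**Figure D3:**
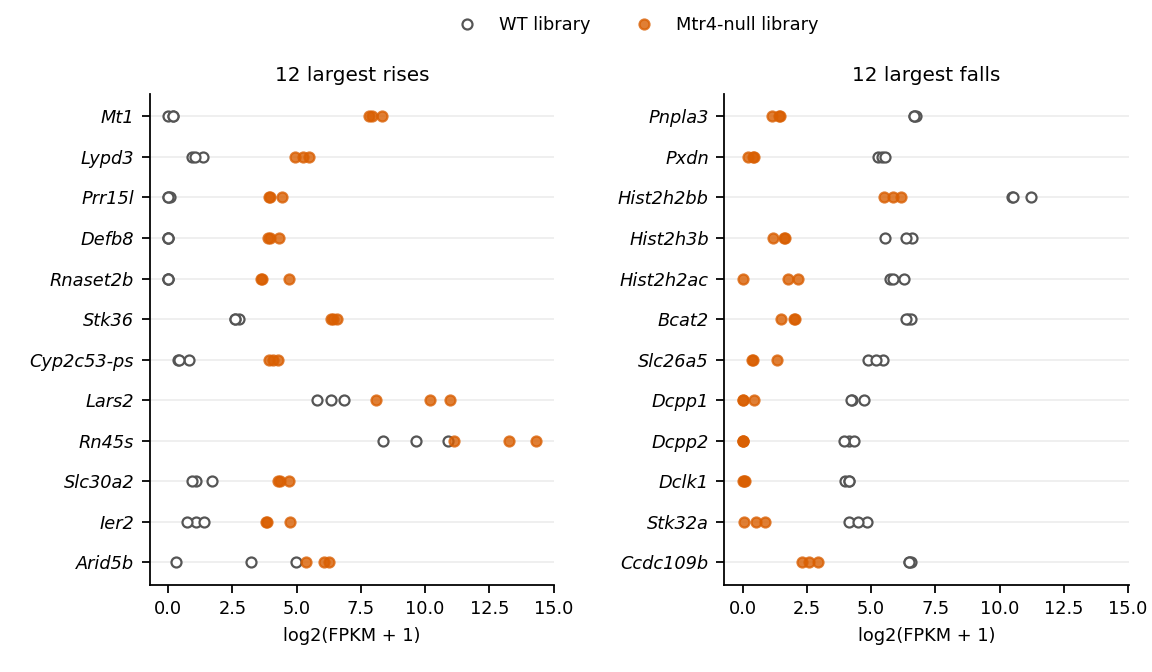
Log2(FPKM + 1) of each WT (open) and Mtr4-null (filled) cytoplasm library for the 12 largest rises (left) and 12 largest falls (right) among genes with a given name, small RNA entries set aside, ordered by size. Points of the same group lie close together for most genes, while those of Rn45s, Lars2 and Arid5b are spread out, and 1 WT library of Rn45s and of Arid5b comes near the lowest Mtr4-null library.

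Of the metallothioneins, small proteins that bind zinc and copper, Mt1 alone was gained. It stood at 0, 0.138 and 0.152 FPKM in WT against 222, 316 and 246 in Mtr4-null (7.89 ± 0.16, limma adjusted p = 8.4e-08), the largest rise of a protein-coding gene tested. The groups were far apart, and with a pseudocount of 0.1 the rise was 10.47. Mt2, which lies beside Mt1 and usually shares its induction by metals, had 0, 0 and 0.293 FPKM in WT, was listed at 0 in all 3 Mtr4-null libraries, and was not tested. Slc30a1, a zinc exporter and another classical target of the metal-sensing factor MTF-1, was at 29.7, 30.6 and 34.4 FPKM in WT against 34.7, 31.6 and 41.9 in Mtr4-null, without a call (0.18 ± 0.14, adjusted p = 0.37). Mtf1 itself was at 31.4, 36.3 and 34.1 and 37.2, 27.0 and 33.3 FPKM (-0.07 ± 0.15, adjusted p = 0.76). Slc30a1 and Mtf1 were chosen after their values were seen. The 250 bases before the annotated start of these 3 genes, from RefSeq on GRCm38.p6, are shown because MTF-1 acts through short metal response elements. Their cores TGCACNC and TGCGCNC, searched on both strands with no match of one overlapping the other, are in capitals.
Mt1 (chr8:94178839-94179088, plus strand): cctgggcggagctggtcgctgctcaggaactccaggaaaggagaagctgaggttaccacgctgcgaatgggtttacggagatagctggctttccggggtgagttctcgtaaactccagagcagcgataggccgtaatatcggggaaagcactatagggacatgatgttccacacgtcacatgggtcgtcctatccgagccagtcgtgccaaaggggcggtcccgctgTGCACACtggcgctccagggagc
Mt2 (chr8:94172368-94172617, plus strand): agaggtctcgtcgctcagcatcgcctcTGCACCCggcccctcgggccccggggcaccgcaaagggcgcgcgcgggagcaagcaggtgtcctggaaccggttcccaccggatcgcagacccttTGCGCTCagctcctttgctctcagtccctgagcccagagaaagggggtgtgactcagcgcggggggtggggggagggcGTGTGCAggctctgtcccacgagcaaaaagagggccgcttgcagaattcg
Slc30a1 (chr1:191906531-191906780, plus strand): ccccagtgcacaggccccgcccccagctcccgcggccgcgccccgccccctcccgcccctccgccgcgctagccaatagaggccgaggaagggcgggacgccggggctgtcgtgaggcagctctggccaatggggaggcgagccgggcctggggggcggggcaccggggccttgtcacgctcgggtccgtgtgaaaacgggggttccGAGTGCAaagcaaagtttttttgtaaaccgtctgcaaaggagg

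The Mt1 window held 1 such core, the Mt2 window 3 and the Slc30a1 window 1. Of 32851 promoter windows of the same length, 21.4% held at least 1 and 5.17% at least 2. A match is of letters only. Bases beyond these windows, on either side, were not searched, so the counts do not give the number of elements of a gene. They do not show which of the 3 genes has more. Of 20 metallothionein and zinc transporter genes tested, 4 rose and 1 fell. Slc30a2, which loads zinc into vesicles, was at 2.24, 1.13 and 0.911 FPKM in WT against 19.2, 18.4 and 25.4 in Mtr4-null, and Slc39a1, a zinc importer of the cell surface, rose from 14.9 ± 3.35 to 31.1 ± 8.38 FPKM. Slc39a5 rose by 1.12 ± 0.25 (2.07 with pseudocount 0.1, and adjusted p = 0.055 without WT replicate 2). Slc39a10, another importer, fell from 121 ± 6.17 to 64.8 ± 23.5 FPKM, a call lost without WT replicate 1, 2 or 3 (adjusted p = 0.051, 0.073 and 0.064), and its change was -0.63 without Mtr4-null replicate 2. The list gave 4, 3, 4, 4, 6 and 4 rises, left out in turn.

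Several abundant gains followed one order among the Mtr4-null libraries, highest in replicate 2 and lowest in replicate 1. Rn45s, the precursor of the large ribosomal RNAs, stood at 1879.9, 805 and 332 FPKM in WT against 2211, 20429 and 9796 in Mtr4-null, 0.078 to 0.398% of the summed FPKM in WT and 0.522%, 4.34% and 2.4% in Mtr4-null. Its rise (3.26 ± 0.82, limma adjusted p = 0.019) was lost without WT replicate 2 (0.058), WT replicate 3 (0.060) or Mtr4-null replicate 3 (0.060). Lars2, for the leucyl-tRNA synthetase of mitochondria, was at 79.4, 115 and 55.1 FPKM in WT against 268, 1984 and 1180.2 in Mtr4-null (3.41 ± 0.63). Gm20594 was at 17.7, 17.4 and 5.88 and 49.2, 413 and 187 FPKM, and Tmem38b, for a cation channel of the endoplasmic reticulum, at 40.4, 40.4 and 27.8 and 104, 499 and 312 FPKM. Lars2 and Gm20594 were named on the condition that the groups do not overlap, and in Tmem38b they did not overlap either. Mir32 had the same order. The libraries were depleted of ribosomal RNA, and the part of leftover ribosomal RNA in these 5 values was not tested. Without Rn45s, small RNA and mitochondrial entries in the total, the median of all genes was 0.06, and 2184 genes were called higher and 1259 lower.

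The 12 largest falls, again among genes with a given name and without small RNA entries, were Pnpla3, Pxdn, Hist2h2bb, Hist2h3b, Hist2h2ac, Bcat2, Slc26a5, Dcpp1, Dcpp2, Dclk1, Stk32a and Ccdc109b. Pnpla3, a lipase of lipid droplets, was at 101, 106 and 102 FPKM in WT against 1.22, 1.67 and 1.73 in Mtr4-null, and Pxdn, for an extracellular matrix peroxidase, at 37.4, 41.8 and 45.1 and 0.323, 0.153 and 0.356 FPKM. Ccdc109b, for a subunit of the mitochondrial calcium uniporter, went from 89.9 ± 3.45 to 5.16 ± 1.32 FPKM (-3.90 ± 0.17, limma adjusted p = 4.8e-06). Stk32a, a kinase gene, was at 16.4, 27.8 and 21.5 FPKM in WT against 0.418, 0.0393 and 0.824 in Mtr4-null. No overlap between the groups was a condition for naming these 12, and each call held with any 1 library left out. In amounts, the largest loss was that of Tlcd2, at 5316, 3658 and 3251 FPKM in WT against 1732, 2619.8 and 951 in Mtr4-null (-1.29 ± 0.35, adjusted p = 0.026). That call was lost without WT replicate 1 (0.086), WT replicate 2 (0.070), Mtr4-null replicate 1 (0.057) or Mtr4-null replicate 3 (0.066). Intu, a gene of ciliary planar polarity, fell from 647 ± 89.8 to 279.9 ± 122 FPKM, and Gm8234 from 715 ± 88.0 to 218 ± 62.6 FPKM.

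Of 15 subunits of the exosome tested, 3 rose, 2 fell and the median was -0.02. Exosc10, the nuclear exonuclease that MTR4 serves, fell from 41.9 ± 2.59 to 22.9 ± 5.92 FPKM (-0.87 ± 0.18, limma adjusted p = 0.0086), and Dis3l, the exonuclease of the cytoplasmic exosome, from 77.0 ± 4.41 to 35.9 ± 6.90 FPKM (-1.10 ± 0.15). Exosc2, of the cap that binds RNA, rose from 9.97 ± 2.25 to 21.9 ± 4.72 FPKM (1.06 ± 0.20). Exosc6 and Exosc7, both of the barrel, rose by 1.53 ± 0.39 and 0.50 ± 0.14, but the calls were lost without WT replicate 2 (0.075 and 0.14) or WT replicate 3 (0.052 and 0.098), and that of Exosc7 without WT replicate 1 (0.056) or Mtr4-null replicate 3 (0.099) and with the replicate block (0.068).

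In the list of MTR4 and its adaptors 5 of 15 rose, and Skiv2l2 itself was the gene that fell. Zfc3h1, the scaffold of PAXT, was at 8.82, 7.99 and 7.97 FPKM in WT against 17.8, 14.2 and 16.9 in Mtr4-null (0.90 ± 0.15, limma adjusted p = 0.0031). Zcchc7, the zinc-knuckle subunit of TRAMP, was at 6.74, 6.48 and 6.37 and 14.2, 13.03 and 11.6 FPKM (0.88 ± 0.15). Srrt, the cap-binding partner ARS2, rose from 19.1 ± 2.96 to 39.5 ± 10.1 FPKM and Grwd1 from 10.8 ± 1.49 to 24.6 ± 3.56 FPKM. Groups did not overlap in any of these 4, and the calls held with any 1 library left out. The fifth was Ncbp2, of the nuclear cap-binding complex (0.51 ± 0.13), lost without WT replicate 2 or 3 (adjusted p = 0.088 and 0.082).

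Of the 29 genes of oocyte identity tested, 3 rose (10.3%) and 6 fell (20.7%), against 15.5% and 12.5% of all genes. Gdf9, the growth factor that oocytes send to granulosa cells, was at 3215, 3353 and 3482 FPKM in WT against 3288, 3393 and 3416 in Mtr4-null (0.01 ± 0.16, and -0.72 with quantile normalization), with the groups overlapping. Zp1, Zp2 and Zp3, of the zona pellucida coat, were not called (0.20 ± 0.27, 0.68 ± 0.30 and 0.47 ± 0.23), and their Mtr4-null libraries ranged widely, Zp2 over 2902, 1821 and 4457 FPKM. Kit, the receptor for the granulosa cell signal that drives growth, was at -0.04 ± 0.22. Bmp15, the partner of Gdf9, fell from 1107 ± 85.6 to 763 ± 148 FPKM (-0.55 ± 0.17), and Nobox, a homeobox regulator of oocyte growth, from 264 ± 13.3 to 164 ± 43.9 FPKM (-0.71 ± 0.18). Figla, which drives the zona genes, rose from 26.0 ± 3.59 to 41.7 ± 4.53 FPKM (0.66 ± 0.14). Limma adjusted p for the 3 was 0.043, 0.021 and 0.010, and rose to 0.16, 0.085 and 0.055 without WT replicate 2 and to 0.14, 0.061 and 0.052 without WT replicate 3. Without WT replicate 1 or Mtr4-null replicate 3 it was 0.065 and 0.082 for Bmp15 and 0.051 and 0.059 for Nobox. The call of Bmp15 was also lost with the replicate number as a block (0.086), with quantile normalization (0.084) and with the total rescaled (0.054), and that of Nobox with quantile normalization (0.059).

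Rfpl4, a ubiquitin-pathway gene of oocytes, fell from 976 ± 44.9 to 545 ± 66.9 FPKM (-0.85 ± 0.14, limma adjusted p = 0.0031), and Sohlh1, a transcription factor of early follicles, rose from 2.35 ± 0.601 to 7.06 ± 0.783 FPKM (1.28 ± 0.19, 0.0020). The oocyte identity list had 3, 1, 1, 3, 4 and 2 rises and 1, 1, 1, 8, 6 and 2 falls left out in turn. Maternal-effect genes, whose products the embryo needs from the egg, had 1 of 30 that rose and 4 that fell. Among the falls were Nlrp2, from 164 ± 6.53 to 108 ± 5.36 FPKM, and Nlrp4f, from 753 ± 40.8 to 478 ± 32.5 FPKM. The rise was that of Nlrp5, the MATER protein of the subcortical complex, from 644 ± 84.0 to 953 ± 193 FPKM, a call lost without WT replicate 2 (0.18), WT replicate 3 (0.15), Mtr4-null replicate 2 (0.051) or Mtr4-null replicate 3 (0.073) and with median-of-ratios scaling (0.072) or the replicate block (0.092).

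Multicopy families that oocytes express, the oogenesins (Oog), the Obox homeobox genes, the Nlrp4 and Nlrp9 genes and the Oas1 genes of the oligoadenylate synthetase family, had falls and no rise. Of 22 members tested, 15 fell and 0 rose, with a median of -0.62, and 11, 10, 10, 15, 17 and 12 falls left out in turn. Together with 4 that did not pass the filter they summed to 5666, 5939 and 5464 FPKM and 3980.4, 3264 and 3602 FPKM in Mtr4-null, with no overlap. Oog3, the most abundant oogenesin, was at 798, 778 and 670.2 FPKM in WT against 351, 264 and 329 in Mtr4-null (-1.25 ± 0.15, limma adjusted p = 0.00072). Nlrp4e was at 105, 97.7 and 82.9 and 39.5, 41.2 and 24.3 FPKM, and Nlrp9a at 122, 146 and 131 and 78.2, 65.3 and 67.0 FPKM. The largest fall was that of Oas1f, at 26.3, 33.5 and 30.3 and 4.51, 2.41 and 5.96 FPKM (-2.61 ± 0.25), while Oas1d (-0.68 ± 0.12, and -0.42 with quantile normalization) and Oas1h (-0.92 ± 0.12) fell less. Copies of these genes are alike, and reads divided among them make the value of any 1 copy uncertain. Not every member moved, and Obox2, named after its values were seen, was at 202, 255 and 183 FPKM in WT against 274, 129 and 241 in Mtr4-null.

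**Figure D4:**
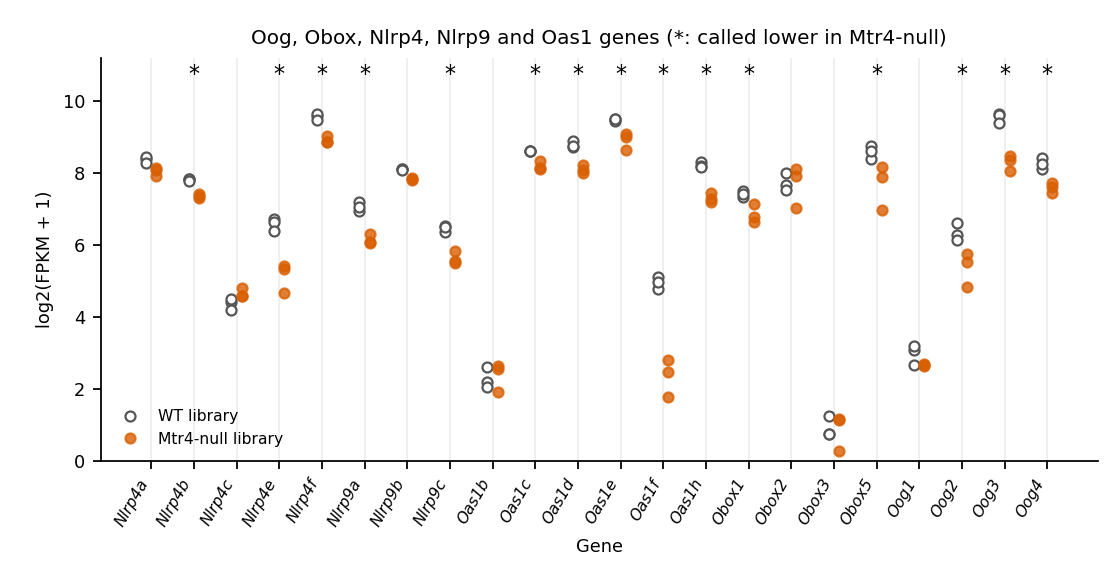
Log2(FPKM + 1) of the 22 tested Oog, Obox, Nlrp4, Nlrp9 and Oas1 genes in the 3 WT (open) and 3 Mtr4-null (filled) cytoplasm libraries, with an asterisk over the 15 called lower. The filled points lie below the open ones in all genes with an asterisk, by most in Oas1f.

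Lists of the translation machinery and of the maternal mRNA store held more falls than rises. Of 61 initiation and elongation factors 13 fell (21.3%) and 2 rose (3.28%), against 12.5% and 15.5% of all genes. Left out in turn, the falls numbered 5, 3, 4, 14, 16 and 6 and the rises 1, 0, 1, 0, 3 and 0. Of all genes at 50 to 100 FPKM 15.2% fell, and of those at 100 FPKM or more 20.7%. The part of expression level in these list counts was not tested. Eif2s2, the beta subunit of the factor that brings the initiator tRNA, fell from 69.0 ± 5.77 to 39.9 ± 4.56 FPKM (-0.78 ± 0.13, limma adjusted p = 0.0033), and Eif3e from 47.8 ± 1.88 to 26.9 ± 5.39 FPKM (-0.82 ± 0.15). The tRNA synthetase genes Qars and Tars fell from 177 ± 2.80 to 105 ± 25.9 and from 22.3 ± 2.05 to 12.1 ± 1.02 FPKM. Of 80 ribosomal protein genes 8 fell and 3 rose, shares below those of all genes, although the median was -0.23, with 4, 4, 6, 17, 11 and 5 falls and 2, 1, 0, 2, 3 and 2 rises left out in turn. Rpl37 fell from 144 ± 22.3 to 50.6 ± 15.6 FPKM (-1.53 ± 0.23) and Rps15a from 15.8 ± 2.41 to 8.26 ± 1.22 FPKM. Processed copies of ribosomal protein genes can share their reads.

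Of 41 genes of mRNA storage and translational control 8 fell (19.5%) and 1 rose (2.44%), against 12.5% and 15.5% of all genes, with a median of -0.23. Left out in turn, the falls numbered 4, 1, 3, 16, 8 and 4 and the rises 1, 0, 0, 0, 1 and 0. Elavl2, an RNA-binding protein of oocytes, fell from 119 ± 4.94 to 81.0 ± 9.46 FPKM (-0.55 ± 0.12, limma adjusted p = 0.012, and 0.066 without WT replicate 2). In mRNA decay 6 of 37 genes fell (16.2%) and 2 rose (5.41%). Cnot7, a deadenylase subunit of CCR4-NOT, fell from 87.9 ± 16.3 to 47.7 ± 2.61 FPKM (-0.85 ± 0.15, adjusted p = 0.0038), and Xrn1, the cytoplasmic 5′ exonuclease, from 10.3 ± 0.320 to 5.33 ± 1.16 FPKM (-0.85 ± 0.17). Calls of both genes held with any 1 library left out, while the list had 4, 2, 3, 8, 7 and 4 falls and 2, 0, 0, 1, 3 and 1 rises left out in turn.

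Lists of meiotic maturation and of the spindle had shares of falls above the 12.5% of all genes. Of 38 genes of meiotic arrest and maturation 12 fell and 3 rose, and of 45 genes of the anaphase-promoting complex, spindle and kinetochore 12 fell and 0 rose. Left out in turn, the first list gave 8, 5, 7, 11, 13 and 10 falls and 2, 0, 1, 2, 5 and 2 rises, and the second 7, 4, 6, 17, 12 and 8 falls and 0, 0, 0, 0, 1 and 0 rises. Ccnb3, the cyclin B3 of meiosis, was at 9.07, 11.9 and 8.12 FPKM in WT against 1.56, 0.354 and 1.02 in Mtr4-null (-2.47 ± 0.26, limma adjusted p = 0.00044). Plk1, a mitotic and meiotic kinase, fell from 135 ± 5.70 to 83.4 ± 16.9 FPKM (-0.71 ± 0.15), Cdc20, the activator of the anaphase-promoting complex, from 79.2 ± 2.74 to 48.8 ± 4.15 FPKM (-0.69 ± 0.11) and Mapk3 from 237 ± 5.59 to 152 ± 17.8 FPKM (-0.64 ± 0.12). Mos, the kinase that starts the MAP kinase cascade in oocytes, was not called (0.23 ± 0.12, adjusted p = 0.19).

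Of the kinetochore and checkpoint genes, Ttk was at 94.8, 100.1 and 94.8 FPKM in WT against 58.3, 41.2 and 45.3 in Mtr4-null (-1.0004 ± 0.14, limma adjusted p = 0.0017). Bub1 was at 47.3, 48.9 and 46.4 and 30.2, 22.997 and 25.4 FPKM (-0.84 ± 0.13), and Cenpe, a motor at the kinetochore, at 21.9, 20.9 and 17.5 and 10.8, 8.27 and 6.27 FPKM (-1.18 ± 0.20). In each the 3 WT libraries lay close to each other and above all Mtr4-null libraries. Among the Kif genes, the kinesin motors, 11 of 29 fell (37.9%) and 4 rose (13.8%), against 12.5% and 15.5% of all genes. Left out in turn, they had 10, 8, 9, 13, 11 and 11 falls and 2, 2, 2, 3, 7 and 2 rises. Kif23, a motor of the spindle midzone, fell from 122 ± 9.99 to 55.6 ± 17.9 FPKM (-1.17 ± 0.20) and Kif22, which pushes chromosomes, from 142 ± 6.70 to 93.97 ± 5.46 FPKM (-0.59 ± 0.11). Kif13a fell from 6.72 ± 0.678 to 2.13 ± 0.372 FPKM (-1.31 ± 0.17) and Kif24 from 20.1 ± 0.956 to 8.77 ± 2.05 FPKM (-1.13 ± 0.18).

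Transcripts of the meiotic prophase included clear losses. Hormad1, an axis protein of unsynapsed chromosomes, stood at 11.01, 11.1 and 8.16 FPKM in WT against 0.445, 0.214 and 0.0831 in Mtr4-null (-3.15 ± 0.20, and -5.00 with pseudocount 0.1, limma adjusted p = 3.4e-05). Sycp3, of the lateral elements, fell from 28.4 ± 4.66 to 11.23 ± 2.98 FPKM (-1.28 ± 0.20) and Tex12, of the central element, from 6.85 ± 2.199 to 2.39 ± 0.787 FPKM (-1.20 ± 0.25). Tex15, a germ cell protein of recombination and transposon control, rose from 1.03 ± 0.571 to 5.603 ± 1.45 FPKM (1.72 ± 0.25). In all, 5 of 20 tested genes of the list fell and 2 rose, and 12 of its 32 entries did not pass the filter. The list had 3, 3, 3, 6, 5 and 3 falls left out in turn, and 1 rise without any 1 library. In the small RNA pathways Mael fell from 43.1 ± 3.06 to 14.6 ± 1.66 FPKM (-1.50 ± 0.13) and Piwil1 from 9.63 ± 4.56 to 1.03 ± 0.630 FPKM (-2.35 ± 0.33), while Piwil2 rose from 11.6 ± 1.70 to 19.7 ± 1.36 FPKM (0.72 ± 0.15). All 3 belong to the defence of germ cells against transposons, and the list counted 2 of 30 that rose and 4 that fell (2, 2, 2, 3, 3 and 3 left out in turn).

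Chromatin genes moved both ways. Ezh2, the methyltransferase of Polycomb complex 2, was at 139, 136 and 111 FPKM in WT against 79.0, 51.1 and 46.2 in Mtr4-null (-1.15 ± 0.20, limma adjusted p = 0.0042), and its partner Suz12 fell from 109 ± 11.4 to 63.2 ± 13.7 FPKM (-0.79 ± 0.17). Of Polycomb complex 1 members, Kdm2b fell from 136 ± 9.27 to 89.6 ± 4.38 FPKM (-0.59 ± 0.11) and Ring1 rose from 2.78 ± 0.637 to 7.78 ± 1.04 FPKM (1.22 ± 0.19). Of 36 histone modifiers 8 fell and 3 rose. That list had 5, 3, 3, 10, 8 and 5 falls and 1, 1, 1, 2, 6 and 2 rises left out in turn. Gata4, a transcription factor, fell from 27.2 ± 6.91 to 8.83 ± 2.40 FPKM (-1.51 ± 0.23) and Stat3 rose from 36.2 ± 3.0004 to 61.6 ± 2.48 FPKM (0.75 ± 0.12).

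Replication-dependent histone genes, whose mRNAs end in a stem-loop in place of a poly(A) tail, had 9 rises and 10 falls among 45 tested. The 3 large falls were all of the Hist2 cluster. Hist2h2bb stood at 2369, 1413 and 1465 FPKM in WT against 56.6, 70.2 and 44.7 in Mtr4-null (-4.89 ± 0.23, limma adjusted p = 6.8e-06), Hist2h3b at 94.4, 45.5 and 81.1 and 1.25, 2.03 and 2.098 FPKM, and Hist2h2ac at 75.7, 52.1 and 56.4 and 2.43, 0 and 3.50 FPKM. Another abundant member, Hist1h4c, fell less, from 958 ± 148 to 529.7 ± 13.4 FPKM (-0.84 ± 0.15). In the other direction, Hist3h2ba rose from 24.8 ± 9.14 to 82.8 ± 18.5 FPKM (1.73 ± 0.25) and Hist1h2ac from 2.42 ± 0.611 to 7.91 ± 1.67 FPKM (1.38 ± 0.21). Hist1h2bj stood at 48.8, 26.3 and 43.3 FPKM in WT against 380.3, 70.2 and 339.5 in Mtr4-null, a call lost without WT replicate 2 (0.057) or Mtr4-null replicate 3 (0.052). The list had 9, 6, 8, 8, 14 and 7 rises left out in turn. Near-identical copies make single histone genes uncertain. Of the histone variants H2afj rose from 4.65 ± 1.96 to 19.5 ± 5.57 FPKM (1.88 ± 0.27) and H2afy, for macroH2A, from 4.30 ± 0.735 to 8.40 ± 0.992 FPKM (0.83 ± 0.17). H1foo, the linker histone of oocytes, was at -0.45 ± 0.15 without a call (adjusted p = 0.057).

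Immediate early genes, which cells transcribe within minutes of a stimulus and whose mRNAs are short-lived, rose in 9 of 16 tested, with 0 falls and a median of 0.69. A further 17 of the list did not pass the filter, Fos and Jun among them. Ier2 stood at 1.10, 0.672 and 1.60 FPKM in WT against 12.9, 25.7 and 13.4 in Mtr4-null (3.06 ± 0.28, limma adjusted p = 0.00022), Junb at 0.755, 0.371 and 0.378 and 5.34, 2.82 and 4.32 FPKM (1.76 ± 0.23), and Maff at 0.638, 0.438 and 1.29 and 3.44, 5.61 and 3.81 FPKM (1.57 ± 0.24). With a pseudocount of 0.1 in place of 1 Junb was at 2.84 and Maff at 2.39. The lowest Mtr4-null library exceeded the highest WT library in all 3. None of them had 1 FPKM in all 3 WT libraries, so each passed the filter only with its Mtr4-null libraries. They thus entered the count of rises because they were high there, and their separation adds no support to it. Csrnp1 rose from 21.8 ± 2.71 to 53.9 ± 7.21 FPKM (1.27 ± 0.14) and Dusp2, a phosphatase of MAP kinases, from 8.67 ± 1.84 to 20.4 ± 2.27 FPKM (1.16 ± 0.17). Dusp1 was lower without a call (-0.54 ± 0.18, adjusted p = 0.050). The rises numbered 7, 5, 6, 6, 8 and 6 left out in turn, and there were 2 falls without Mtr4-null replicate 1 and 1 with median-of-ratios scaling.

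Of 8 genes of antigen presentation tested, of 32 listed, 5 rose and 1 fell. H2-K1, a classical class I heavy chain, was at 4.84, 6.66 and 6.21 FPKM in WT against 28.7, 41.3 and 42.6 in Mtr4-null (2.47 ± 0.19, limma adjusted p = 7.7e-05). H2-T23, a nonclassical one, was at 0.196, 1.59 and 4.02 and 12.1, 11.3 and 10.4 FPKM (2.30 ± 0.43), and H2-Oa, of class II, rose from 5.32 ± 2.77 to 13.02 ± 1.51 FPKM (1.23 ± 0.28). The class II alpha chain gene H2-Aa went the other way, at 35.0, 28.8 and 31.5 FPKM in WT against 1.65, 3.07 and 1.38 in Mtr4-null (-3.47 ± 0.22, adjusted p = 3.4e-05). B2m, the light chain of class I, was not called (-0.77 ± 0.38, adjusted p = 0.16). Blood cells express these genes too. The 8 blood and endothelium markers summed to 10.47 to 18.1 FPKM in WT and 11.9 to 17.3 FPKM in Mtr4-null, nearly all of it Pecam1, while the hemoglobin genes Hba-a1, Hba-a2 and Hbb-b1 were listed at 0 in all 6 libraries and Ptprc, the pan-leukocyte marker, in 5 of them. The rises numbered 3 without WT replicate 2. Class I genes have close copies among which reads could have been divided.

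Genes of interferon response and double-stranded RNA sensing had 8 falls and 2 rises among 18 tested of 43 listed, with 5, 6, 5, 8, 8 and 7 falls left out in turn. Of the 8 falls 5 were of Oas1 genes, counted among the multicopy families too. Isg20, an RNA exonuclease, was at 4.65, 3.73 and 4.19 FPKM in WT against 0.368, 0 and 0.439 in Mtr4-null (-2.05 ± 0.20, and -3.86 with pseudocount 0.1, limma adjusted p = 0.00032), and Oasl1 rose from 2.103 ± 0.722 to 5.66 ± 0.671 FPKM (1.12 ± 0.21). Isg15, Ifit1, Ifit3 and Irf7, which interferon induces, did not reach the filter. In the p53 list 3 of 28 rose and 4 fell, shares near those of all genes (3, 1, 1, 4, 5 and 3 rises and 3, 2, 2, 4, 5 and 3 falls left out in turn). Mdm4, the p53 inhibitor, fell from 434 ± 10.2 to 156 ± 49.5 FPKM (-1.52 ± 0.21, adjusted p = 0.0014), and Aen, a nuclease that p53 induces, rose from 6.58 ± 0.462 to 19.6 ± 3.04 FPKM (1.43 ± 0.16, 0.00051).

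In PI3K, FOXO and mTOR signalling, by which oocytes leave dormancy and grow, 6 of 37 genes rose and 5 fell, shares near those of all genes. Left out in turn, they were 2, 1, 3, 2, 7 and 2 rises and 3, 1, 1, 6, 6 and 1 falls. The 6 rises include Pdk1, a kinase of pyruvate oxidation rather than of this signalling, counted in the tricarboxylic acid list too. Deptor, an inhibitor of mTOR, fell from 68.6 ± 2.02 to 43.5 ± 5.09 FPKM (-0.65 ± 0.12, limma adjusted p = 0.0055). The receptor gene Bmpr2, through which oocyte factors of the BMP family signal, fell from 28.5 ± 4.101 to 13.7 ± 2.77 FPKM (-1.02 ± 0.18, adjusted p = 0.0046), and Smurf1, a ubiquitin ligase for SMADs, rose from 14.3 ± 1.47 to 26.9 ± 1.17 FPKM (0.87 ± 0.13). Among 24 genes of ion channels and volume control 4 rose and 3 fell (2, 1, 1, 2, 7 and 2 and 3, 1, 2, 3, 3 and 3 left out in turn). The sodium-proton exchanger gene Slc9a3 rose from 31.4 ± 1.14 to 51.9 ± 6.91 FPKM (0.70 ± 0.13).

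In lipid and sterol metabolism Npc1, which exports cholesterol from lysosomes, rose from 41.3 ± 3.92 to 109 ± 27.1 FPKM (1.35 ± 0.19, limma adjusted p = 0.0016), while Nsdhl, of cholesterol synthesis, fell from 19.2 ± 1.27 to 7.08 ± 0.525 FPKM (-1.32 ± 0.14, 0.00044) and Soat1, which esterifies cholesterol, from 52.7 ± 3.86 to 29.0 ± 6.19 FPKM (-0.86 ± 0.17). The cholesterol list had 7 falls and 2 rises among 27 tested, with 5, 3, 3, 8, 9 and 5 falls and 2, 1, 1, 3, 3 and 1 rises left out in turn. Besides Bcat2, which starts the breakdown of leucine, isoleucine and valine in mitochondria (86.1, 93.2 and 80.0 FPKM in WT and 3.05, 1.80 and 2.98 in Mtr4-null), Bckdhb, a subunit of the next enzyme complex of that pathway, fell from 9.82 ± 1.09 to 1.81 ± 0.801 FPKM (-1.98 ± 0.22, 0.00056). Got1, an aspartate aminotransferase, fell from 24.7 ± 3.95 to 9.72 ± 1.72 FPKM (-1.26 ± 0.17). Of 21 genes of glycolysis and the pentose phosphate pathway 3 rose and 3 fell (2, 2, 2, 2, 6 and 2 and 2, 0, 1, 3, 3 and 2 left out in turn). Pfkl, a phosphofructokinase, rose from 4.60 ± 0.586 to 12.97 ± 1.84 FPKM (1.32 ± 0.17) and Rpe, of the pentose phosphate pathway, from 11.2003 ± 0.727 to 32.9 ± 1.75 FPKM (1.48 ± 0.13). The falls were those of Pfkp, another phosphofructokinase (-0.84 ± 0.18), Gpi1, the glucose phosphate isomerase (-0.58 ± 0.16), and G6pdx, which opens the pentose phosphate pathway (-0.60 ± 0.14). The call of Pfkp was lost without WT replicate 2 (adjusted p = 0.051), that of Gpi1 without WT replicate 1, 2 or 3 or Mtr4-null replicate 3 (0.094, 0.060, 0.11 and 0.073), and that of G6pdx without WT replicate 2 or 3 (0.067 and 0.055) or with quantile normalization (0.055, with a change of -0.39). Of 24 genes of the tricarboxylic acid cycle and pyruvate dehydrogenase 2 rose and 5 fell (1, 1, 1, 1, 3 and 1 and 2, 1, 2, 3, 4 and 2 left out in turn), and the rises included Pdk1, a kinase that restrains pyruvate oxidation, from 3.96 ± 0.840 to 9.62 ± 1.31 FPKM (1.10 ± 0.18).

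Of 82 genes of oxidative phosphorylation 4 rose and 2 fell, with a median of -0.03. Its falls were Ndufa12, of complex I, from 20.9 ± 2.89 to 7.59 ± 5.06 FPKM (-1.50 ± 0.34, limma adjusted p = 0.013), and Uqcrq, of complex III, from 286 ± 9.27 to 171 ± 10.3 FPKM (-0.74 ± 0.11). Left out in turn, the list had 5, 0, 0, 3, 6 and 4 rises and 2, 2, 3, 5, 5 and 3 falls. Splicing factors had 0 rises and 4 falls among 64 (0, 0, 0, 0, 3 and 0 rises and 1, 1, 3, 9, 8 and 1 falls left out in turn). In mRNA export, Thoc5 of the THO complex was at 21.7, 20.4 and 19.98 FPKM in WT against 8.76, 8.13 and 7.54 in Mtr4-null (-1.25 ± 0.13, 0.00049). Ribosome biogenesis had 5 rises and 10 falls among 64 (6, 3, 3, 4, 7 and 4 and 6, 5, 6, 10, 11 and 7 left out in turn). Dkc1, the pseudouridine synthase of box H/ACA particles, fell from 36.3 ± 4.31 to 15.1 ± 2.35 FPKM (-1.22 ± 0.16, 0.00099), and Rrp36, of early ribosomal RNA cleavage, rose from 10.3 ± 2.50 to 33.7 ± 4.93 FPKM (1.63 ± 0.19, 0.00058). The chaperone gene Hspa8 fell from 535 ± 70.7 to 307 ± 42.4 FPKM (-0.80 ± 0.15) and Pdia6, a disulfide isomerase of the endoplasmic reticulum, rose from 47.2 ± 6.41 to 120.3 ± 7.13 FPKM (1.34 ± 0.13, 0.00031).

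Solute carriers, the Slc genes, had 25 rises and 16 falls among 157 tested, shares near those of all genes (16, 15, 15, 19, 36 and 17 and 14, 7, 9, 15, 21 and 13 left out in turn). The amino acid transporter gene Slc38a8 was at 15.7, 14.1 and 15.1 FPKM in WT against 41.0, 39.8 and 47.4 in Mtr4-null (1.45 ± 0.13, limma adjusted p = 0.00015). Slc12a8, of the cation-chloride cotransporter family, went the other way, at 22.8, 25.9 and 32.9 against 4.53, 5.76 and 3.63 FPKM (-2.33 ± 0.20, 0.00012). In both genes the groups lay far apart. Slco3a1, an organic anion transporter, rose from 34.8 ± 4.94 to 85.1 ± 5.66 FPKM (1.27 ± 0.14). Of 76 mitochondrial ribosomal protein genes 7 rose and 4 fell (8, 5, 5, 7, 9 and 6 and 1, 1, 2, 8, 7 and 1 left out in turn), among them Mrpl9, which rose from 35.1 ± 1.96 to 93.7 ± 21.0 FPKM (1.37 ± 0.16), and Mrps33, which fell from 64.8 ± 4.99 to 41.99 ± 4.13 FPKM (-0.61 ± 0.12).

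Of 45 proteasome genes 4 rose and 7 fell (3, 2, 2, 4, 4 and 5 and 3, 2, 3, 8, 9 and 2 left out in turn). The catalytic subunit gene Psmb5 rose from 78.2 ± 8.96 to 151 ± 42.3 FPKM (0.91 ± 0.19, limma adjusted p = 0.0086), while Psmb1 of the same ring fell from 94.8 ± 9.84 to 60.3 ± 6.93 FPKM (-0.65 ± 0.13, 0.0080) and Psmc1, an ATPase of the cap, from 67.6 ± 4.73 to 43.6 ± 5.06 FPKM (-0.62 ± 0.13). In the list of mRNA 3′ end formation and termination 4 of 36 rose and 6 fell (4, 4, 4, 4, 7 and 4 and 3, 2, 3, 10, 6 and 4 left out in turn). Cstf3, of the cleavage stimulation factor, was at 7.63, 8.28 and 9.18 FPKM in WT against 20.1, 36.0 and 20.2 in Mtr4-null (1.45 ± 0.22, 0.0025), without overlap. Sun2, which links the nuclear lamina to the cytoskeleton, was at 1.37, 1.22 and 1.79 against 8.38, 6.10 and 6.37 FPKM (1.69 ± 0.19, 0.00054), in a list of nuclear pore and lamina genes with 5 rises and 7 falls among 46 (3, 1, 1, 5, 6 and 2 and 2, 1, 1, 10, 5 and 3 left out in turn).

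Genes of DNA methylation and imprint protection, which set the marks that an egg passes on, had 1 rise and 5 falls among 26 tested (1, 0, 0, 0, 4 and 1 rises and 2, 2, 2, 5, 6 and 2 falls left out in turn). The de novo methyltransferase gene Dnmt3a was at 48.3, 38.9 and 38.7 FPKM in WT against 37.6, 34.1 and 32.2 in Mtr4-null, without a call (-0.27 ± 0.13, limma adjusted p = 0.17). Its cofactor Dnmt3l was not called either (-0.28 ± 0.17, 0.24), and both were chosen after their values were seen.

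Zinc finger genes named Zfp rose in 61 (22.7%) and fell in 24 (8.92%) of 269 tested, against 15.5% and 12.5% of all genes. Left out in turn, they were 58, 39, 41, 53, 77 and 47 rises and 16, 10, 11, 33, 27 and 17 falls. Of all genes under 2 FPKM 24.3% rose and 10.8% fell, and of those at 5 to 10 FPKM 20.6% rose. The part of expression level in the Zfp counts was not tested. Zfp316 was at 4.69, 3.04 and 4.09 FPKM in WT against 15.2, 15.7 and 23.01 in Mtr4-null (1.93 ± 0.21, limma adjusted p = 0.00049), and Zfp628 rose from 24.4 ± 1.06 to 66.2 ± 13.1 FPKM (1.38 ± 0.15). Zfp618 had 0.0273, 0 and 0.0966 FPKM in WT and reached 6.63, 10.2 and 4.89 FPKM in Mtr4-null, and Zfp697 went from 0.249 ± 0.154 to 6.50 ± 2.31 FPKM (2.55 ± 0.24, and 4.27 with pseudocount 0.1). All 4 were separated between the groups, but Zfp618 and Zfp697 passed the filter only through their Mtr4-null libraries.

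**Figure D5:**
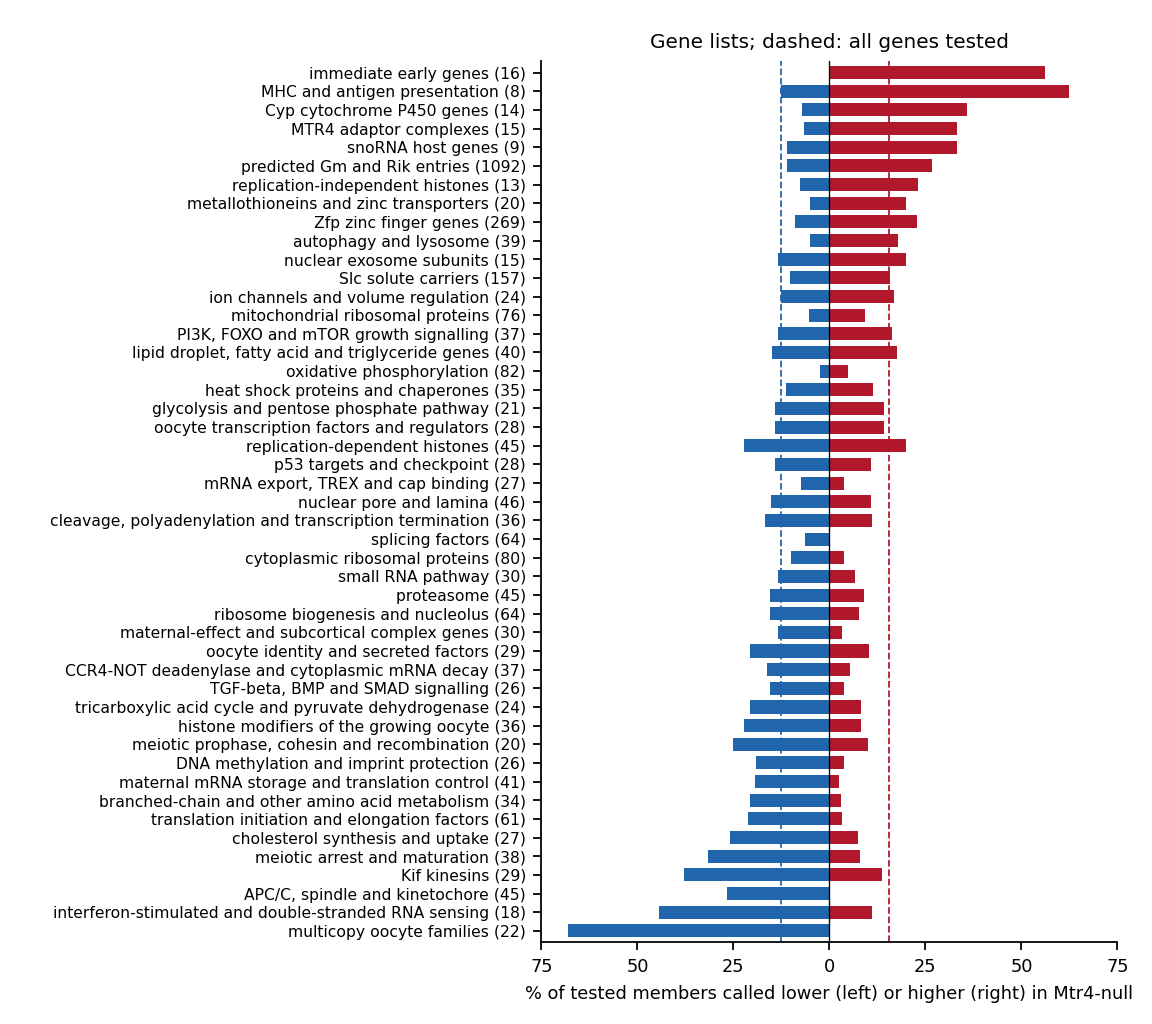
Percentage of the tested members of each gene list (number tested in parentheses) called lower (blue, to the left) or higher (red, to the right) in Mtr4-null cytoplasm, ordered by the difference, with dashed lines at the shares of all genes tested, 12.5% and 15.5%. Immediate early and antigen presentation genes reach farthest to the right, the multicopy oocyte families farthest to the left, and most lists lie near or inside the dashed lines. Of the immediate early list 17 of 33 members did not pass the filter, and of the antigen presentation list 24 of 32. A gene could pass it through its higher group alone, so the bars describe the tested members only.

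Neighbouring genes were compared along the RefSeq order, by position on GRCm38.p6. Of 11350 neighbouring pairs of tested genes, 941 had both called, 337 with both higher, 229 with both lower and 375 in opposite directions. With 15.5% of all genes tested called higher and 12.5% lower, pairs and runs of called neighbours arise without any link between the genes. The number to be had in this way was not computed, so the counts and runs are descriptive. The longest run of rises had 6 genes, among them BC051226, at 2.51, 1.32 and 1.21 FPKM in WT against 16.3, 13.9 and 12.3 in Mtr4-null. A run of 5 had Ethe1, Phldb3, Lypd3, Cd177 and Ceacam10, all higher, with Cd177, a surface protein gene, at 15.9, 14.6 and 15.9 FPKM in WT against 58.8, 45.4 and 57.9 in Mtr4-null (1.73 ± 0.14, limma adjusted p = 0.00010). Another run of 5 had Fahd1, Igfals, Nubp2, Spsb3 and Eme2, all higher, with Eme2, a subunit of a structure-specific nuclease, at 7.73, 6.23 and 6.65 and 26.9, 34.6 and 34.7 FPKM (2.07 ± 0.16). These names were chosen after their values were seen, and a further run of 5 rises is not described here. A run of 6 neighbours that fell, Gm14420 to Etohi1, consists mostly of related zinc finger copies that can share reads. The use of strand in counting is not given in the sources used here, so reads that run from one gene into the next cannot be told apart from its own.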

How the data were processed

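RNA of 6 cytoplasm samples was analysed from the deposited FPKM table, which the authors made from paired-end reads. TopHat2 2.1.1, Cufflinks 2.2.1 and the mouse build mm9 are named per the submitters' processing notes, and the counting of strand and of reads shared by copies was not found in the sources used here. Deposited FPKM values keep no read counts, so the depth behind a value is not known beyond a relative estimate from low values. Values were tested as log2(FPKM + 1) with limma 3.58.1 in R 4.3.3 (trend, Benjamini-Hochberg over 11458 genes), after a filter of 1 FPKM in at least 3 libraries, and genes were called at an adjusted p below 0.05. The test was checked on simulated data. Alternatives changed the pseudocount, filter, scaling, groups fitted, replicate block and libraries. The labels do not say that replicate numbers pair samples, and the main fit did not pair them. Deviations from the group mean correlated at -0.198, -0.151 and 0.089 between samples of the same number. Between samples of other numbers they correlated at -0.157 to 0.244. Deviations from a mean of 3 libraries depend on each other, so these values cannot decide whether numbers pair the samples.

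The comparison, the 62 gene lists and the named genes were chosen with earlier results of these data known. Genes were named by rule. First came the 12 largest called rises and falls at 5 FPKM or more in the higher group without overlap. Small RNA, Gm and Rik entries were left out of these. Then came 4 of each among Gm and Rik entries on the same conditions, and the 10 largest gains and losses in FPKM among called genes without overlap. Per list, up to 5 called genes of smallest adjusted p and the 3 most abundant were named, beside a few oocyte and control genes. Not every gene the rule picks is reported here. Gene classes, spans and promoters came from RefSeq on GRCm38.p6, matched by symbol, and no mm9 coordinates were read.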

Additional observations from a re-analysis of the deposited data

How the results depend on the processing

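The counts of genes that rose and fell, 1777 and 1434, were 192 and 110 in the fit of all 4 groups of libraries, and so were the counts at 2-fold or more. With 1 library left out they ranged from 996 to 2112 rises and from 660 to 1770 falls, lowest without WT replicate 2, and at 2-fold or more from 658 to 894 and from 377 to 574. A filter of 1 FPKM in all 6 libraries, which tested 10018 genes, left 440 and 266 at 2-fold or more. Under the other alternatives (pseudocount 0.1, no filter, median-of-ratios, quantile, rescaling, replicate block) the 4 counts stayed within 1.5 times of their values. The replicate block gave 1520 and 1126. Of 173 called genes named, none changed sign under an alternative that tested it (133 were tested under the stricter filter and 169 under the rescaling), and 150 were called with any 1 library left out. The replicate block kept 169 and ended the calls of Bmp15, Exosc7, Kitl and Nlrp5. Without the filter 159 were called, and those of Arid5b, Bmp15, Exosc6, Exosc7, Gpi1, Hist1h2bj, Kitl, Nlrp5, Nobox, Rn45s, Slc39a10, Snhg3, Taf1d and Tlcd2 were not. The call of Arid5b was also lost with pseudocount 0.1. For genes without a call the sign could change. With 1 library left out, the log2 change of Gdf9 ranged from -0.022 to 0.035, of Kit from -0.233 to 0.23, of Mtf1 from -0.17 to 0.056, of Obox2 from -0.256 to 0.285, of Pecam1 from -0.049 to 0.359, of Serpine2 from -0.124 to 0.178 and of Zp1 from -0.094 to 0.506. With median-of-ratios scaling that of Gdf9 was -0.0021, with quantile normalization Gdf9 was at -0.72, Kit at 0.096 and Obox2 at 0.19, and rescaled without Rn45s, small RNA and mitochondrial entries Kit was at 0.039, Mtf1 at 0.012 and Obox2 at 0.038. The cause was not tested. With 3 libraries a group, an exact permutation test of 1 gene cannot go below 0.10.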
